A study of Rattus norvegicus with 36 samples.

Results

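The transcripts described here are those of a set of genes for the cell cycle and DNA replication in rat liver. The set names 40 genes, from the cyclins of G1 phase to the motor proteins of cell division. They were chosen by function, with earlier results of these data known. The aim was to look for the liver cell proliferation that activators of the constitutive androstane receptor (CAR) can cause in rodents. An array probe set annotated to that gene alone measured 38 of the 40, out of 14217 genes measured in this way. Cdc6 had no probe set listed for it, and Rrm2 was found only on 2 probe sets shared with another gene, so neither was analysed here. Where a gene had several probe sets, as 9 did, the one with the highest mean over the 36 samples stood for it. Of the 38, 28 lay at or above the median level of all 31042 probe sets tested and 10 lay below it.

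The samples came from the left liver lobe of male Harlan Sprague Dawley rats, 7 weeks old at the start, that received HCDBCO by oral gavage for 5 days. HCDBCO (hexachlorocyclopentadienyl-dibromocyclooctane) is a halogenated flame retardant. There were 6 groups of 6 samples. The vehicle group received the corn oil carrier alone, the low doses of HCDBCO were 0.05 and 0.54 mg/kg body weight per day, the middle dose was 5.41 mg/kg, and the high doses were 54.1 and 541 mg/kg. Livers were collected 1 day after the final gavage. The design sets each dose against vehicle. The labels number the samples but name no animals, so the spread given here is that between these samples. Every level below is the authors' RMA value on the log2 scale for 1 probe set, and levels are not set against each other between genes. Every difference is between group means on that scale, with its 95% interval or limma's standard error after ±, and a gene passed the test when its p, adjusted over all 31042 probe sets, put it within a false discovery rate (FDR) of 5%.

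A cell that leaves the resting state first builds D-type cyclins, which with Cdk4 loosen the hold of the retinoblastoma proteins on E2F transcription factors. E2F then raises the genes that license replication origins and make nucleotides, and in G2 phase and mitosis a second wave of genes is raised through promoter elements called CHR (cell cycle genes homology region) and CCAAT boxes. In the adult liver nearly all hepatocytes rest outside the cycle, and transcripts of the mitotic wave, such as Mki67 and Top2a, are used as markers of the few cells that divide. In whole liver RNA, a change in the number of dividing cells and a change in transcript per cell cannot be told apart.

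The 6 promoter windows below are those of the genes the results return to most, Ccnd1 having no entry in the table used: 4 mitotic genes whose levels moved together between samples, and 2 replication genes that followed them less closely. Each runs from 250 bases before to 50 bases after the start of the gene, 5′ to 3′ on the strand of the gene, from RefSeq on GRCr8. Capitals mark matches on either strand to an E2F site (TTTCCCGC, TTTCGCGC, TTTGCCGC or TTTGGCGC), a CHR (TTTGAA or TTCGAA) or CCAAT, and a match is a description of the letters only.
Mki67: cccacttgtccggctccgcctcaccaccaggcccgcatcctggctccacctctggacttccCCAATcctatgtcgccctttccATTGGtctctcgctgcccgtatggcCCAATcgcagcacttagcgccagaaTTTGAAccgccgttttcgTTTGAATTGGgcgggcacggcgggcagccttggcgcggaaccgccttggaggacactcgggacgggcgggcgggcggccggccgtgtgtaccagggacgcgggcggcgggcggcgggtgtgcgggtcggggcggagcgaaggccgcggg
Top2a: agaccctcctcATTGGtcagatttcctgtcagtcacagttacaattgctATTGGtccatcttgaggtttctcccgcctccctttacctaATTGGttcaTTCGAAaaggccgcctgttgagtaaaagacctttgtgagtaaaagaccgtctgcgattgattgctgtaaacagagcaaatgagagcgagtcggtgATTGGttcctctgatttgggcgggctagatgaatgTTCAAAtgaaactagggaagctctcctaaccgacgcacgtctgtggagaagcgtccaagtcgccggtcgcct
Cdk1: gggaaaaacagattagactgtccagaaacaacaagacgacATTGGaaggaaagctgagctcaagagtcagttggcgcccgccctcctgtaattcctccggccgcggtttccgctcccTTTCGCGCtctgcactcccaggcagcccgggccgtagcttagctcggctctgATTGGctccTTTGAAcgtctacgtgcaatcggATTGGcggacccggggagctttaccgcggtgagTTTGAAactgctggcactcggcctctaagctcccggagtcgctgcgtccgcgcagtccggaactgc
Ccnb1: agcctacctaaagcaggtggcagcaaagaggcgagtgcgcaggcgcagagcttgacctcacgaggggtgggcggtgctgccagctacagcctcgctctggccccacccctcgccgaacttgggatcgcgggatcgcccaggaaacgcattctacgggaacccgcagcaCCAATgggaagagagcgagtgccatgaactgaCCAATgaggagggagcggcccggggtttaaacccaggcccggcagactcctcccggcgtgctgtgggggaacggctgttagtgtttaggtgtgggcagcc
Mcm2: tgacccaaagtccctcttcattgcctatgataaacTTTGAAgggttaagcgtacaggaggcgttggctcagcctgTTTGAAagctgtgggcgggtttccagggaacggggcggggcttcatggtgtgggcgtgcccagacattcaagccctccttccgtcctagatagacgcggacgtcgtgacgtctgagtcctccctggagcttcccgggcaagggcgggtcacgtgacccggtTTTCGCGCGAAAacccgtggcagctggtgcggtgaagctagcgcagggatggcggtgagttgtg
Pcna: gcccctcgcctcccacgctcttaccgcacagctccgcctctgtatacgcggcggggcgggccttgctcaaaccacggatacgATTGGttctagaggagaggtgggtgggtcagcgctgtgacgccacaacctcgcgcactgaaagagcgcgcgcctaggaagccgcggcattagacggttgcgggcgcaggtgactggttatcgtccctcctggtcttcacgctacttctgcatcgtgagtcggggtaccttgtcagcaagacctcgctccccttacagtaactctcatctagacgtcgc

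The windows lie as follows: Mki67 at chr1:199952544-199952843, minus strand, Top2a at chr10:84473044-84473343, minus strand, Cdk1 at chr20:19265043-19265342, plus strand, Ccnb1 at chr2:33655176-33655475, minus strand, Mcm2 at chr4:122918045-122918344, minus strand, and Pcna at chr3:139955771-139956070, minus strand. The Mki67 window holds 2 CHR matches and 4 CCAAT matches, and 1 of each share letters, while the Top2a window holds the same numbers with no overlap. The Cdk1 window holds 2 CHR, 3 CCAAT and 1 E2F match. Ccnb1 has 2 CCAAT matches and Pcna has 1, and neither window holds a CHR or E2F match. Mcm2 has 2 E2F matches that overlap each other and 2 CHR matches. Of the 38 measured genes, 32 had such a window. A CHR match was in 12 of 18 windows of mitotic genes (66.7%) and 3 of 14 windows of G1 and S phase genes (21.4%), against 19.7% of all 33469 windows in the table. E2F matches ran the other way, in 1 of 18 mitotic windows (5.56%) and 8 of 14 G1 and S phase windows (57.1%), against 2.14% of all windows. CCAAT was in 83.3% of the mitotic windows, 57.1% of the G1 and S phase windows and 37.5% of all windows.

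None of the 38 genes passed the test at any dose. At 541 mg/kg the count was 0 of 38, where 0.155% of all probe sets passed, and at 54.1 mg/kg it was 0 of 38, where 0.0741% passed. At 5.41, 0.54 and 0.05 mg/kg no gene and no probe set passed, so that both shares were 0%. The trend over the dose order, a slope per dose step, was passed by 0 of 38 genes and 0.715% of probe sets, limma's F-test over all groups by 0 of 38 and 0.0999%, and 541 against 54.1 mg/kg by 0 of 38 and 0.00322%. There was 1 exception among the probe sets not chosen to stand for a gene: the dimmer probe set of Kif11, a motor that pushes the spindle poles apart, passed in the trend with a slope of 0.07 ± 0.02 per dose step (limma, adjusted p = 0.0453). The brighter Kif11 probe set had a slope of 0.03 (limma, adjusted p = 0.688), so the probe sets of this gene lay on different sides of the threshold.

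At an unadjusted p under 0.05 in limma, 1 gene lay above vehicle at 541 mg/kg (Tk1) and 1 below it (Ccnd1), which is 5.26% of the 38 beside 9.07% of all probe sets. At 54.1 mg/kg 0 genes lay above and 1 below, beside 9.2% of probe sets in all. The counts above and below were 0 and 2 at 5.41 mg/kg, beside 4.83%, 0 and 1 at 0.54 mg/kg, beside 4.18%, and 0 and 0 at 0.05 mg/kg, beside 3.02%. In the trend 1 gene had a slope above 0 and 2 below 0 at that p, beside 12% of probe sets, and in the F-test there were 3 genes, beside 5.99%. In 541 against 54.1 mg/kg there were 2, Gmnn and Tk1, both higher at 541 mg/kg, beside 4.76%. The median difference of the 38 genes was 0.02 at 541 mg/kg, -0.07 at 54.1, -0.06 at 5.41, -0.09 at 0.54 and -0.02 at 0.05 mg/kg, whereas the median over all probe sets was between 0.00076 and 0.0096 at these doses. For no gene at any dose did the 6 treated samples lie wholly above or wholly below the 6 vehicle samples, a separation seen in 0.744%, 0.596%, 0.151%, 0.226% and 0.0773% of probe sets from the highest dose to the lowest.

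Each interval was made gene by gene, with no adjustment for the number of genes or doses, so it is not a limit of detection. It bounds a difference of group means in RMA value, and how closely that follows the change in transcript was not tested. All 38 upper bounds lay below a 2-fold rise and all 38 lower bounds above a 2-fold fall at each of the 5 doses. At 541 mg/kg, 34 upper bounds lay below a 1.5-fold rise, and the widest reached 1.79-fold, for Cdk1. The median standard error of the 38 differences was 0.17, against 0.08 over all probe sets.

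**Figure D1:**
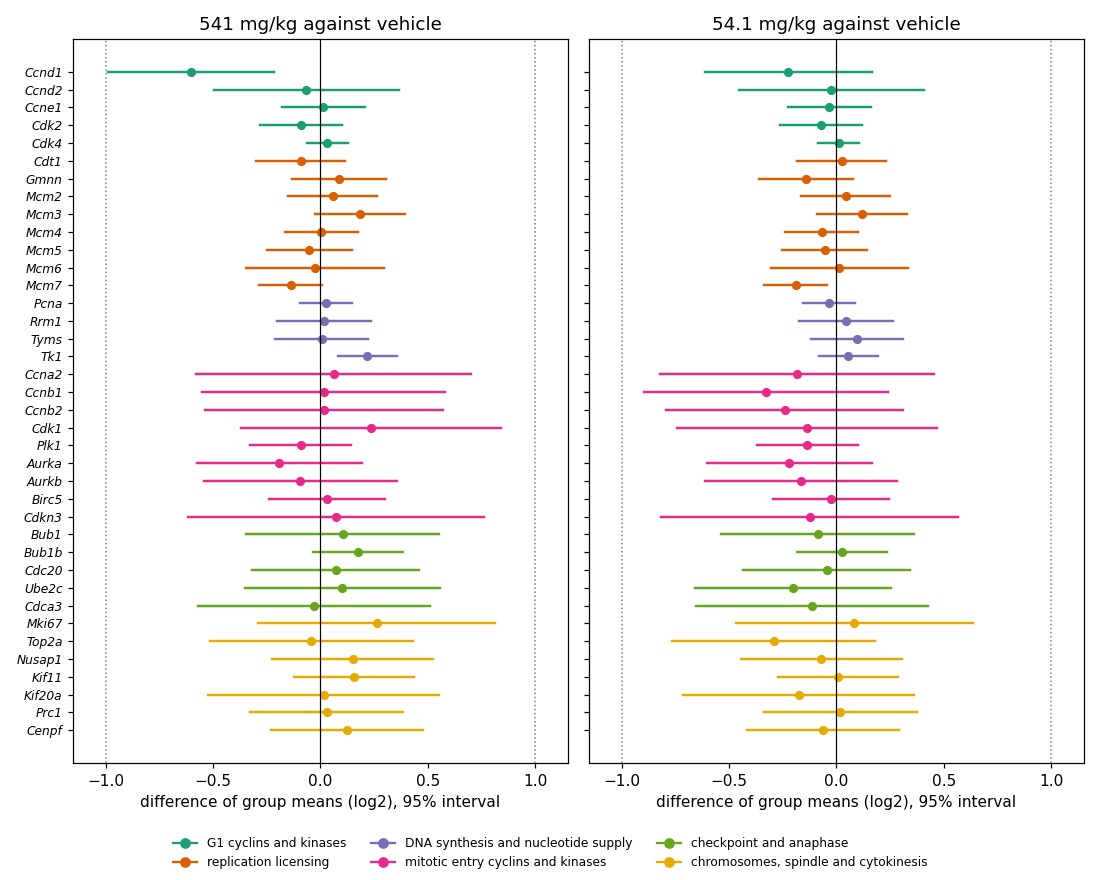
Differences from vehicle for the 38 genes, on the log2 scale, at 541 mg/kg (left) and 54.1 mg/kg (right); points are differences of group means, lines 95% intervals from limma, colours the role of the gene, and dotted lines a 2-fold change. The intervals of Ccnd1 and Tk1 at 541 mg/kg and of Mcm7 at 54.1 mg/kg leave out 0, and none of the 3 passed the FDR.

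Among the 5 G1 cyclins and kinases, the largest difference of the whole set was in Ccnd1, cyclin D1, the cyclin that links growth signals to entry into the cycle. Ccnd1 levels ran from 9.16 to 9.91 with a median of 9.50 in vehicle, 9.26 to 9.94 with a median of 9.67 at 0.05 mg/kg and 8.99 to 9.81 with a median of 9.48 at 0.54 mg/kg. They ran from 8.77 to 10.25 with a median of 9.40 at 5.41 mg/kg, 8.97 to 9.82 with a median of 9.14 at 54.1 mg/kg and 8.49 to 9.52 with a median of 8.84 at 541 mg/kg. The median was highest at 0.05 mg/kg and lowest at 541 mg/kg, and at 541 mg/kg 4 of the 6 samples lay below the lowest vehicle sample, while the other 2 lay within the range of vehicle. The difference at 541 mg/kg was -0.60 ± 0.19, with an interval of -0.99 to -0.22, a ratio of 0.658 to vehicle, and it did not pass the test (limma, adjusted p = 0.223). The other 2 Ccnd1 probe sets differed by -0.48 and -0.47 at this dose (limma, adjusted p = 0.378 and 0.36). The slope over the dose order was -0.12 per dose step (limma, adjusted p = 0.0819), the smallest adjusted p of the 38 genes in any comparison. Against the 18 pooled samples of the 3 lowest doses, Ccnd1 at 541 mg/kg differed by -0.59 ± 0.16 (limma, adjusted p = 0.111).

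The kinase partner of cyclin D1, Cdk4, was the steadiest gene of the set. Cdk4 levels ran from 8.95 to 9.20 with a median of 9.08 in vehicle, 9.01 to 9.14 with a median of 9.07 at 0.05 mg/kg and 8.96 to 9.16 with a median of 9.02 at 0.54 mg/kg. They ran from 8.997 to 9.13 with a median of 9.05 at 5.41 mg/kg, 8.97 to 9.18 with a median of 9.11 at 54.1 mg/kg and 9.08 to 9.16 with a median of 9.11 at 541 mg/kg. All 36 values thus lay within 1.19-fold of each other, and the difference at 541 mg/kg was 0.03, with an interval of -0.06 to 0.13. Ccne1, cyclin E1, activates Cdk2 at the start of S phase. Ccne1 levels ran from 4.99 to 5.39 with a median of 5.06 in vehicle, 4.75 to 5.14 with a median of 5.07 at 0.05 mg/kg and 4.86 to 5.39 with a median of 5.24 at 0.54 mg/kg. They ran from 4.90 to 5.46 with a median of 5.17 at 5.41 mg/kg, 4.99 to 5.20 with a median of 5.09 at 54.1 mg/kg and 4.72 to 5.34 with a median of 5.20 at 541 mg/kg. Its ranges overlapped throughout, and its difference was 0.01, with an interval of -0.18 to 0.21, at 541 mg/kg. Ccnd2, cyclin D2, and Cdk2 differed by -0.07 and -0.09 at 541 mg/kg.

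Of the 8 licensing genes, 4 had means above vehicle at 541 mg/kg and 4 below, with a median difference of -0.01, and none passed the test. Mcm2 to Mcm7 encode the subunits of the ring-shaped helicase that is loaded at replication origins. Mcm2 levels ran from 5.53 to 5.81 with a median of 5.74 in vehicle, 5.43 to 5.95 with a median of 5.63 at 0.05 mg/kg and 5.03 to 5.82 with a median of 5.62 at 0.54 mg/kg. They ran from 5.38 to 5.75 with a median of 5.59 at 5.41 mg/kg, 5.56 to 5.92 with a median of 5.75 at 54.1 mg/kg and 5.51 to 6.16 with a median of 5.74 at 541 mg/kg. Its highest value was in 1 sample at 541 mg/kg and its lowest in 1 sample at 0.54 mg/kg, and the difference at 541 mg/kg was 0.06, with an interval of -0.15 to 0.27 (limma, adjusted p = 0.913). Mcm4 had the smallest F-test p of the 38 genes (limma, adjusted p = 0.428). Mcm4 levels ran from 6.86 to 7.17 with a median of 6.97 in vehicle, 6.93 to 7.21 with a median of 7.01 at 0.05 mg/kg and 6.47 to 7.00 with a median of 6.77 at 0.54 mg/kg. They ran from 6.57 to 6.97 with a median of 6.77 at 5.41 mg/kg, 6.78 to 7.04 with a median of 6.93 at 54.1 mg/kg and 6.77 to 7.13 with a median of 7.00 at 541 mg/kg. Of the 6 samples at 0.54 mg/kg 3 lay below every vehicle sample, as did 5 of 6 at 5.41 mg/kg. The differences were -0.22, with an interval of -0.39 to -0.05, at 5.41 mg/kg and -0.23, with an interval of -0.40 to -0.06, at 0.54 mg/kg (limma, adjusted p = 0.977 and 0.999), and 0.0041 at 541 mg/kg.

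Mcm7 lay below vehicle on average at every dose. Mcm7 levels ran from 7.38 to 7.66 with a median of 7.57 in vehicle, 7.41 to 7.59 with a median of 7.46 at 0.05 mg/kg and 7.34 to 7.63 with a median of 7.46 at 0.54 mg/kg. They ran from 7.03 to 7.53 with a median of 7.40 at 5.41 mg/kg, 7.28 to 7.44 with a median of 7.35 at 54.1 mg/kg and 7.25 to 7.68 with a median of 7.35 at 541 mg/kg. At 54.1 mg/kg 4 of 6 samples lay outside the vehicle range on its low side, and the difference of -0.19, with an interval of -0.34 to -0.04, was the nearest to the threshold at that dose (limma, adjusted p = 0.394). Its difference at 541 mg/kg was -0.14, with an interval of -0.28 to 0.01. Mcm3 differed the other way, with means above vehicle at all 5 doses. Mcm3 levels ran from 4.86 to 5.30 with a median of 5.12 in vehicle, 4.77 to 5.27 with a median of 5.22 at 0.05 mg/kg and 4.97 to 5.51 with a median of 5.25 at 0.54 mg/kg. They ran from 4.72 to 5.46 with a median of 5.27 at 5.41 mg/kg, 5.01 to 5.43 with a median of 5.23 at 54.1 mg/kg and 5.20 to 5.44 with a median of 5.27 at 541 mg/kg. All 6 samples at 541 mg/kg were above the vehicle mean and 2 were above the highest vehicle sample, with a difference of 0.18, with an interval of -0.02 to 0.39 (limma, adjusted p = 0.61). The means of these subunits, which work as 1 complex, thus lay on both sides of vehicle.

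Mcm6 levels ran from 5.08 to 5.86 with a median of 5.46 in vehicle, 5.41 to 6.08 with a median of 5.46 at 0.05 mg/kg and 4.85 to 5.96 with a median of 5.39 at 0.54 mg/kg. They ran from 5.21 to 6.02 with a median of 5.32 at 5.41 mg/kg, 5.37 to 5.76 with a median of 5.44 at 54.1 mg/kg and 5.18 to 5.61 with a median of 5.53 at 541 mg/kg. Single samples stood high at 0.05 and 5.41 mg/kg, and the difference at 541 mg/kg was -0.02, with an interval of -0.35 to 0.30. Gmnn encodes geminin, which keeps an origin from being licensed again in the same cycle by holding Cdt1. Gmnn levels ran from 4.65 to 5.06 with a median of 4.86 in vehicle, 4.70 to 4.91 with a median of 4.75 at 0.05 mg/kg and 4.52 to 5.07 with a median of 4.84 at 0.54 mg/kg. They ran from 4.68 to 5.26 with a median of 4.83 at 5.41 mg/kg, 4.33 to 5.06 with a median of 4.76 at 54.1 mg/kg and 4.81 to 5.15 with a median of 4.89 at 541 mg/kg. Its difference was 0.08, with an interval of -0.13 to 0.30, at 541 mg/kg and -0.14, with an interval of -0.36 to 0.08, at 54.1 mg/kg. Cdt1 and Mcm5 differed by -0.09 and -0.05 at 541 mg/kg.

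The 4 genes of DNA synthesis and nucleotide supply all had means above vehicle at 541 mg/kg, with a median difference of 0.02, and none passed the test. Tk1, thymidine kinase 1, salvages thymidine for DNA synthesis. Tk1 levels ran from 6.88 to 7.22 with a median of 7.09 in vehicle, 7.00 to 7.32 with a median of 7.18 at 0.05 mg/kg and 6.95 to 7.28 with a median of 7.11 at 0.54 mg/kg. They ran from 6.95 to 7.29 with a median of 7.09 at 5.41 mg/kg, 7.02 to 7.27 with a median of 7.10 at 54.1 mg/kg and 7.18 to 7.38 with a median of 7.27 at 541 mg/kg. In Tk1 5 of the 6 samples at 541 mg/kg lay above the highest vehicle sample. The difference of 0.22 ± 0.07, with an interval of 0.08 to 0.36, a ratio of 1.16, had the smallest adjusted p of the set at that dose and did not pass (limma, adjusted p = 0.221). A second Tk1 probe set differed by 0.28 and the dimmest by -0.11 (limma, adjusted p = 0.3 and 0.656), so the 3 did not share a direction.

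Pcna, the sliding clamp that tethers DNA polymerase, is a common marker of S phase. Pcna levels ran from 9.16 to 9.28 with a median of 9.21 in vehicle, 9.18 to 9.39 with a median of 9.21 at 0.05 mg/kg and 9.06 to 9.44 with a median of 9.18 at 0.54 mg/kg. They ran from 9.01 to 9.25 with a median of 9.19 at 5.41 mg/kg, 9.08 to 9.27 with a median of 9.20 at 54.1 mg/kg and 9.13 to 9.44 with a median of 9.23 at 541 mg/kg. Its groups overlapped throughout, and the difference at 541 mg/kg was 0.03 ± 0.06, with an interval of -0.09 to 0.15, which is the narrowest interval in the set after that of Cdk4. Tyms, thymidylate synthase, makes the thymidine nucleotide. Tyms levels ran from 4.93 to 5.41 with a median of 5.04 in vehicle, 4.66 to 5.42 with a median of 5.13 at 0.05 mg/kg and 4.80 to 5.18 with a median of 5.05 at 0.54 mg/kg. They ran from 4.76 to 5.20 with a median of 4.93 at 5.41 mg/kg, 5.04 to 5.43 with a median of 5.11 at 54.1 mg/kg and 4.89 to 5.46 with a median of 5.03 at 541 mg/kg. Its difference was 0.01, with an interval of -0.21 to 0.22, at 541 mg/kg and 0.10 at 54.1 mg/kg. Rrm1, the large subunit of ribonucleotide reductase, differed by 0.02 at 541 mg/kg.

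**Figure D2:**
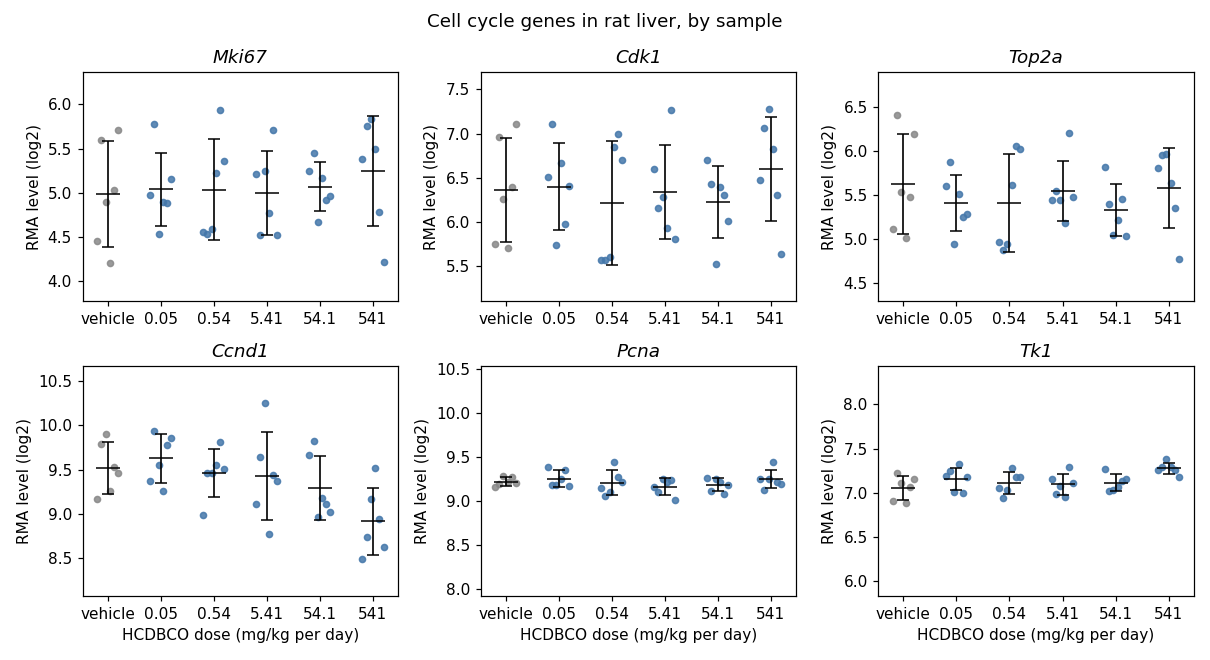
Levels of 6 genes by sample (RMA, log2) against the dose of HCDBCO, with vehicle in grey at the left; points are samples, bars the mean and SD of 6, and the panels share 1 scale of height. Mki67, Cdk1 and Top2a scatter widely in every group, Pcna and Tk1 hardly vary, and Ccnd1 reaches its lowest values at 541 mg/kg.

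The 21 mitotic genes had small differences between groups beside a wide spread within them. Means above vehicle were found in 16 of the 21 at 541 mg/kg and 4 of the 21 at 54.1 mg/kg, and none passed the test at either dose. These genes vary together from sample to sample, as described below, so the directions are not separate observations. Over all probe sets the median difference lay just above 0 at both doses, as given above, so more probe sets had means above vehicle than below it. Of the differences of all 38 genes, 31 at 541 mg/kg and 30 at 54.1 mg/kg were smaller than their standard error. Mki67, whose protein coats mitotic chromosomes, is the usual marker of cycling cells. Mki67 levels ran from 4.21 to 5.71 with a median of 4.96 in vehicle, 4.53 to 5.78 with a median of 4.94 at 0.05 mg/kg and 4.53 to 5.93 with a median of 4.91 at 0.54 mg/kg. They ran from 4.52 to 5.71 with a median of 4.99 at 5.41 mg/kg, 4.67 to 5.45 with a median of 5.07 at 54.1 mg/kg and 4.22 to 5.84 with a median of 5.44 at 541 mg/kg. In vehicle as at 541 mg/kg the lowest and highest samples lay more than 1 log2 unit apart, and 2 samples at 541 mg/kg lay above the highest vehicle sample. The difference of 0.26 ± 0.27, with an interval of -0.29 to 0.81, was the largest positive one of the set at that dose, a ratio of 1.2 (limma, adjusted p = 0.829). At 54.1 mg/kg it was 0.08.

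Cdk1 is the kinase that drives entry into mitosis with cyclins A2, B1 and B2. Cdk1 levels ran from 5.71 to 7.11 with a median of 6.33 in vehicle, 5.73 to 7.10 with a median of 6.46 at 0.05 mg/kg and 5.57 to 6.99 with a median of 6.15 at 0.54 mg/kg. They ran from 5.80 to 7.27 with a median of 6.21 at 5.41 mg/kg, 5.52 to 6.71 with a median of 6.35 at 54.1 mg/kg and 5.64 to 7.28 with a median of 6.65 at 541 mg/kg. Its difference was 0.23 ± 0.30, with an interval of -0.37 to 0.84, at 541 mg/kg and -0.14, with an interval of -0.74 to 0.47, at 54.1 mg/kg (limma, adjusted p = 0.873 and 0.935). Ccnb1 encodes cyclin B1. Ccnb1 levels ran from 5.03 to 5.98 with a median of 5.55 in vehicle, 4.67 to 6.29 with a median of 5.19 at 0.05 mg/kg and 4.28 to 6.18 with a median of 5.45 at 0.54 mg/kg. They ran from 4.56 to 6.27 with a median of 5.35 at 5.41 mg/kg, 4.77 to 5.60 with a median of 5.13 at 54.1 mg/kg and 4.95 to 6.19 with a median of 5.46 at 541 mg/kg. It had the largest negative difference at 54.1 mg/kg, -0.33, with an interval of -0.89 to 0.24 (limma, adjusted p = 0.773), and differed by 0.02 at 541 mg/kg. Ccnb2 levels ran from 5.58 to 6.99 with a median of 6.47 in vehicle, 5.73 to 6.74 with a median of 6.17 at 0.05 mg/kg and 5.50 to 6.94 with a median of 6.12 at 0.54 mg/kg. They ran from 5.61 to 7.01 with a median of 6.18 at 5.41 mg/kg, 5.39 to 6.53 with a median of 6.24 at 54.1 mg/kg and 5.56 to 6.87 with a median of 6.48 at 541 mg/kg. Its difference at 54.1 mg/kg was -0.24, with an interval of -0.79 to 0.31. Ccna2 levels ran from 4.10 to 5.78 with a median of 4.96 in vehicle, 4.35 to 5.88 with a median of 4.90 at 0.05 mg/kg and 3.94 to 5.78 with a median of 4.68 at 0.54 mg/kg. They ran from 4.40 to 5.82 with a median of 4.85 at 5.41 mg/kg, 4.28 to 5.21 with a median of 4.84 at 54.1 mg/kg and 4.09 to 5.74 with a median of 5.06 at 541 mg/kg. Its largest difference was at 0.54 mg/kg, -0.26, with an interval of -0.89 to 0.38.

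The Aurora kinases act at the spindle poles (Aurka) and at the centromeres and midzone (Aurkb). Aurka levels ran from 4.89 to 5.92 with a median of 5.49 in vehicle, 4.79 to 5.73 with a median of 5.50 at 0.05 mg/kg and 4.93 to 5.87 with a median of 5.08 at 0.54 mg/kg. They ran from 4.96 to 5.73 with a median of 5.20 at 5.41 mg/kg, 5.04 to 5.46 with a median of 5.22 at 54.1 mg/kg and 4.74 to 5.86 with a median of 5.26 at 541 mg/kg. A pair of samples at 541 mg/kg lay below the vehicle range, and the difference was -0.19, with an interval of -0.57 to 0.19. Aurkb levels ran from 4.12 to 5.15 with a median of 4.64 in vehicle, 4.14 to 5.21 with a median of 4.54 at 0.05 mg/kg and 3.63 to 4.95 with a median of 4.43 at 0.54 mg/kg. They ran from 4.31 to 5.34 with a median of 4.50 at 5.41 mg/kg, 3.94 to 4.93 with a median of 4.50 at 54.1 mg/kg and 4.13 to 4.95 with a median of 4.62 at 541 mg/kg. The lowest were at 0.54 mg/kg, where the difference was -0.32, with an interval of -0.77 to 0.13, and at 541 mg/kg it was -0.09. Plk1 and Birc5 differed by -0.09 and 0.03 at 541 mg/kg, and Cdkn3, a phosphatase of cyclin-dependent kinases, by 0.07.

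Bub1 and Bub1b belong to the spindle checkpoint, which holds anaphase until every chromosome is attached. Bub1 levels ran from 4.24 to 5.26 with a median of 4.60 in vehicle, 3.78 to 5.39 with a median of 4.50 at 0.05 mg/kg and 4.02 to 5.13 with a median of 4.35 at 0.54 mg/kg. They ran from 4.06 to 5.14 with a median of 4.37 at 5.41 mg/kg, 4.26 to 4.88 with a median of 4.59 at 54.1 mg/kg and 4.08 to 5.39 with a median of 4.78 at 541 mg/kg. Its difference was 0.10, with an interval of -0.35 to 0.55, at 541 mg/kg, against -0.18 and -0.18 at 5.41 and 0.05 mg/kg. Bub1b levels ran from 3.73 to 4.36 with a median of 4.11 in vehicle, 3.88 to 4.17 with a median of 4.12 at 0.05 mg/kg and 3.87 to 4.33 with a median of 4.13 at 0.54 mg/kg. They ran from 3.81 to 4.29 with a median of 4.14 at 5.41 mg/kg, 3.85 to 4.14 with a median of 4.09 at 54.1 mg/kg and 3.81 to 4.36 with a median of 4.27 at 541 mg/kg. For Bub1b 5 of 6 samples at 541 mg/kg were above the vehicle mean and the difference was 0.18, with an interval of -0.03 to 0.38 (limma, adjusted p = 0.637). Cdca3 takes part in the turnover of the mitotic brake Wee1. Cdca3 levels ran from 6.04 to 7.16 with a median of 6.51 in vehicle, 6.21 to 7.15 with a median of 6.53 at 0.05 mg/kg and 5.54 to 7.27 with a median of 6.37 at 0.54 mg/kg. They ran from 5.92 to 7.49 with a median of 6.39 at 5.41 mg/kg, 6.04 to 6.95 with a median of 6.45 at 54.1 mg/kg and 5.93 to 7.01 with a median of 6.63 at 541 mg/kg. Its difference was -0.24, with an interval of -0.78 to 0.30, at 0.54 mg/kg and -0.03 at 541 mg/kg. Cdc20 and Ube2c, with which the anaphase-promoting complex marks cyclin B for destruction, differed by 0.07 and 0.10 at 541 mg/kg.

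Top2a, topoisomerase IIα, untangles sister chromosomes. Top2a levels ran from 5.01 to 6.41 with a median of 5.50 in vehicle, 4.95 to 5.87 with a median of 5.40 at 0.05 mg/kg and 4.88 to 6.06 with a median of 5.29 at 0.54 mg/kg. They ran from 5.18 to 6.20 with a median of 5.46 at 5.41 mg/kg, 5.04 to 5.83 with a median of 5.31 at 54.1 mg/kg and 4.78 to 5.96 with a median of 5.72 at 541 mg/kg. Its highest sample of the 36 was in vehicle and its lowest at 541 mg/kg. The difference was -0.04 ± 0.23, with an interval of -0.52 to 0.43, at 541 mg/kg and -0.29, with an interval of -0.77 to 0.18, at 54.1 mg/kg (limma, adjusted p = 0.977 and 0.752). Its sign at 541 mg/kg turned with array weights, to 0.0093. Cenpf binds kinetochores. Cenpf levels ran from 4.72 to 5.46 with a median of 5.00 in vehicle, 4.57 to 5.74 with a median of 4.96 at 0.05 mg/kg and 4.43 to 5.47 with a median of 4.90 at 0.54 mg/kg. They ran from 4.91 to 5.53 with a median of 5.04 at 5.41 mg/kg, 4.55 to 5.25 with a median of 5.08 at 54.1 mg/kg and 4.61 to 5.46 with a median of 5.21 at 541 mg/kg. Its difference at 541 mg/kg was 0.12, with an interval of -0.23 to 0.48, and at 5.41 mg/kg it was 0.08. Nusap1, Kif11, Kif20a and Prc1, which build and part the spindle, differed by 0.15, 0.16, 0.01 and 0.03 at 541 mg/kg.

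Between the highest doses, 31 of the 38 genes had a higher mean at 541 than at 54.1 mg/kg (81.6%, against 49.9% of all probe sets), with a median difference of 0.07. All 21 mitotic genes were among them, by between 0.01 (Prc1) and 0.37 (Cdk1). None passed the test, the smallest adjusted p of the set being 0.999 in limma, and none of the 21 had an unadjusted p under 0.05. Since these genes vary together from sample to sample, as described next, the 21 directions are not separate observations, and that of Prc1 turned when single samples were left out (-0.057 to 0.084).

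The most marked property of the mitotic genes was their spread between samples of the same dose. The SD within groups had a median of 0.41 on the log2 scale over the 21 mitotic genes and 0.18 over the 17 genes of G1 and S phase, against 0.14 over all probe sets. In 17 of the 21 mitotic genes it lay above the 95th percentile of all probe sets, 0.26, and in 3 of the 17 others (Ccnd1, Ccnd2 and Mcm6). Cdkn3 spread most, with a within-group SD of 0.64 and a 4.37-fold ratio between its highest and lowest samples, and Cdk4 least, with 0.07. The same ratio was 3.31 for Mki67, 3.37 for Cdk1 and 1.35 for Pcna. The difference of means at 541 mg/kg was smaller than 1 within-group SD for Mki67, which had an SD of 0.51, and for Cdk1, at 0.56, whereas it exceeded 1 SD for Ccnd1, at 0.36, and Tk1, at 0.11.

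**Figure D3:**
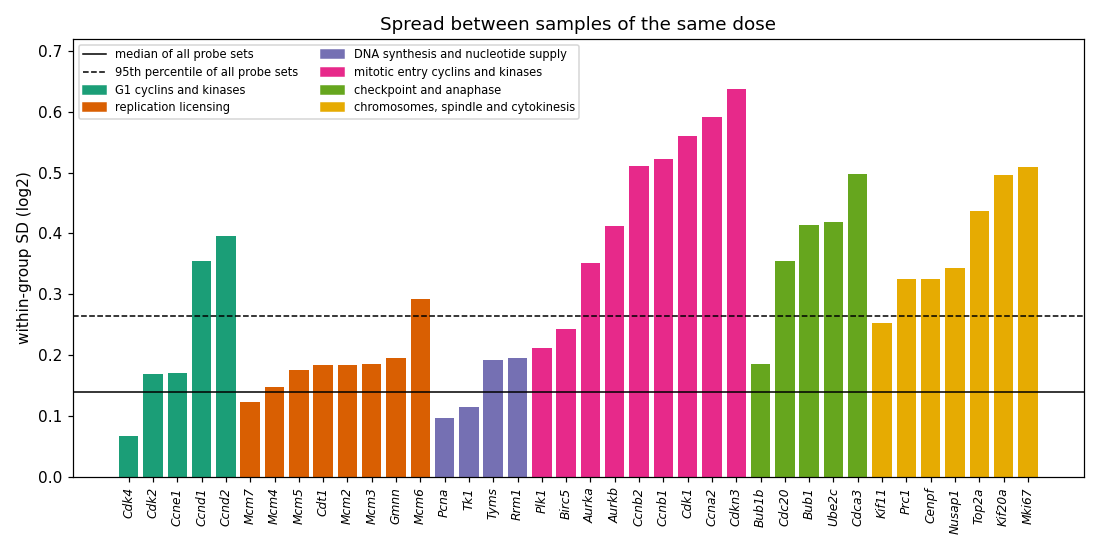
Standard deviation within dose groups (log2, pooled over the 6 groups) of each of the 38 genes, ordered within its role; the solid line is the median and the dashed line the 95th percentile of all 31042 probe sets. Most mitotic bars rise above the dashed line, and most bars for licensing and DNA synthesis stay below it.

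The mitotic genes were high and low in the same samples. After each group mean was subtracted, the median Pearson r over the 36 samples was 0.84 for the 210 pairs of mitotic genes, 0.23 for the 136 pairs of G1 and S phase genes and -0.001 for all pairs of the 14217 genes. The points share arrays and normalisation, and these medians are a description. The G1 cyclins and kinases did not follow one another, with a median r of -0.13 over 10 pairs. Outside the mitotic genes, the closest to the mean of the 21 were Mcm6, with an r of 0.83, Tk1, with 0.78, and Rrm1, with 0.71, and Cdk4 was at -0.24. Among the mitotic genes Kif11 followed the mean of the other 20 least, with an r of 0.58, and Ccna2 most, with 0.98.

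For Mki67, 6 correlations with the genes given whatever their values were tested over the 36 samples, a step chosen after the shared variation had been seen, with 100000 permutations within groups. The same samples had shown that variation, so the p-values describe it and are not separate support for it. The r of Mki67 was 0.93 (Spearman's rho 0.92) with Cdk1, 0.88 (Spearman's rho 0.85) with Top2a and 0.87 (Spearman's rho 0.89) with Ccnb1, each with the smallest permutation p these allow, 1e-05 (adjusted p = 2e-05, for r and for rho). It was 0.48 (Spearman's rho 0.58) with Mcm2 and 0.46 (Spearman's rho 0.52) with Ccnd1 (permutation test, p = 0.00883 and 0.00764 for r and 0.00057 and 0.00255 for rho, adjusted p = 0.0106 for both r and 0.000855 and 0.00306 for rho). With Pcna it was 0.29 (Spearman's rho 0.31), which did not pass (permutation test, p = 0.131 for r and 0.0848 for rho, the same after adjustment). Without the 2 samples farthest from the Mki67 median, r was 0.92 for Cdk1, 0.85 for Top2a, 0.86 for Ccnb1, 0.52 for Mcm2, 0.41 for Ccnd1 and 0.24 for Pcna. Within single groups of 6, r with Cdk1 ran from 0.82 to 0.99.

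**Figure D4:**
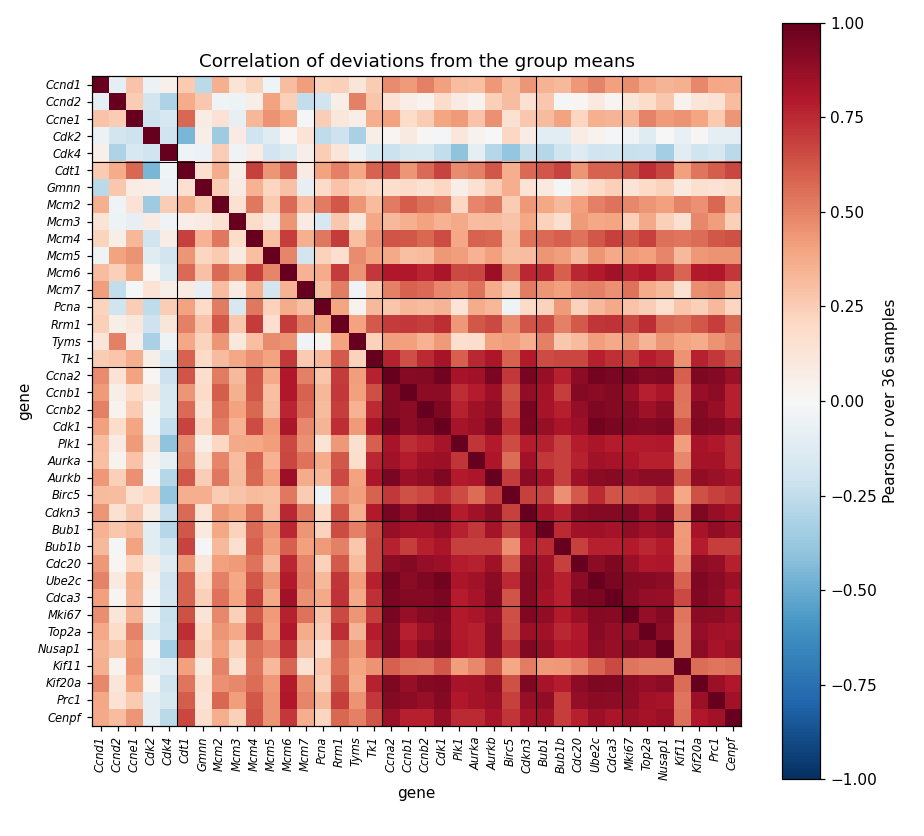
Pearson correlation over the 36 samples between the deviations of each pair of the 38 genes from their group means, from blue (-1) to red (1), with lines between the 6 roles. The 21 mitotic genes form a block of strong positive values at the lower right, which Mcm6 and Tk1 share, while the 5 G1 cyclins and kinases at the upper left show little shared variation.

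Samples with high mitotic levels were found in vehicle and in 4 of the 5 dose groups. The mean log2 level of the 21 genes was highest in replicate 5 of 5.41 mg/kg, at 6.23, followed by 6.18 in replicate 2 of 0.05 mg/kg, 6.18 in replicate 5 of 0.54 mg/kg, 6.12 in replicate 6 of vehicle and 6.10 in replicate 3 of 541 mg/kg and replicate 2 of vehicle. It was lowest in replicates 1 and 3 of 0.54 mg/kg, at 5.02 and 5.10, and in replicate 6 of 541 mg/kg, at 5.10. By group this mean was 5.65 ± 0.41 in vehicle, 5.59 ± 0.34 at 0.05 mg/kg, 5.51 ± 0.48 at 0.54 mg/kg, 5.61 ± 0.36 at 5.41 mg/kg, 5.53 ± 0.25 at 54.1 mg/kg and 5.70 ± 0.38 at 541 mg/kg (SD, n = 6 each). The differences between these group means were smaller than the SD within every group.

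**Figure D5:**
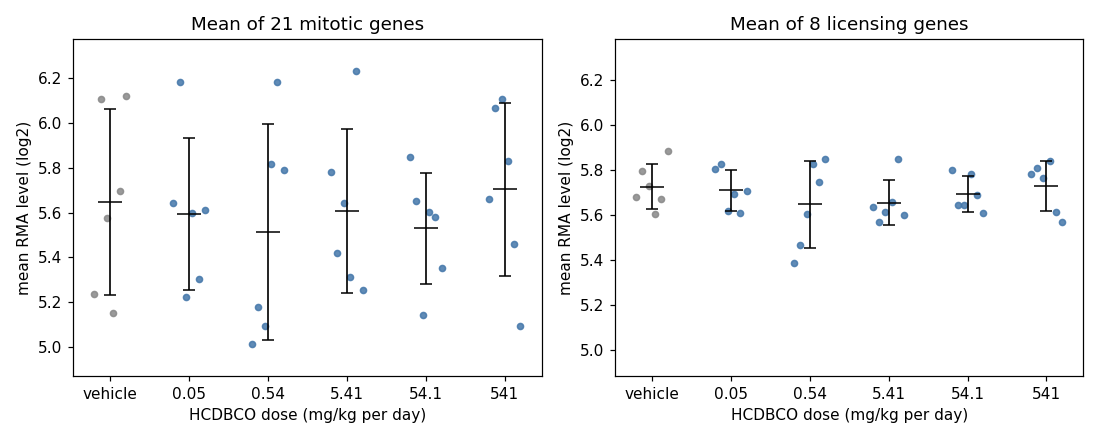
Mean level (RMA, log2) of the 21 mitotic genes (left) and of the 8 licensing genes (right) in each sample against dose, with vehicle in grey; bars are the mean and SD of 6 samples, and both panels cover the same height. The mitotic means run from 5.02 to 6.23 and overlap between all groups, and the licensing means have a narrower spread.

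Markers of liver cell types were set beside this shared variation, a step also chosen after it had been seen. Of 44 measured markers, 0 passed the test in any comparison (limma; at an unadjusted p under 0.05, 2 lay above and 6 below vehicle at 541 mg/kg, 18.2% of the 44 beside 9.07% of all probe sets). The 6 below included 3 of 8 hepatocyte markers and 2 of 4 liver endothelial cell markers. Linear levels were summed over the markers of a cell type, a sum in which its brightest probe sets weigh most. The sum of the 8 hepatocyte markers, Alb among them, was 90660 to 95310 at 541 mg/kg, against 94590 to 99120 in vehicle. That of the 7 Kupffer cell and macrophage markers was 2643 to 4318, against 2355 to 4671. For the 7 T and NK cell markers it was 196 to 226, against 194 to 215. The sum of the 4 endothelial markers was 1980 to 2303 at 541 mg/kg, against 2020 to 2694 in vehicle, and their median difference was -0.16. Over the 36 samples, the mean of the mitotic genes correlated with the marker means of 9 cell types at r between -0.09 (hepatocyte) and 0.27 (Kupffer cell and macrophage) and with the 3′ minus 5′ signal of beta-actin, a sign of RNA quality, at 0.22. Spearman's rho for these 10 relations lay between -0.14 and 0.32, and none passed (permutation test, adjusted p = 0.679 for every r and 0.511 to 0.6 for rho). Without the 2 samples farthest from the median of the mitotic mean, r with the Kupffer cell and macrophage markers was 0.41. Some of the lists were short, that of B cells having 2 of 5 markers measured. Which cells held the transcripts of the mitotic genes was not tested.

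Further cell cycle genes were read in the same way. Of 80 measured genes in 5 further lists, 0 passed the test at any dose (limma). At 541 mg/kg 4 lay above vehicle and 0 below at an unadjusted p under 0.05, which is 5% beside 9.07% of all probe sets, and the median difference was 0.02. Of the 12 E2F, Rb and related transcription factors the smallest p at 541 mg/kg were those of Myc, E2f1 and Rb1, with differences of 0.87, 0.19 and 0.19. Myc, a growth factor-induced transcription factor, ran from 7.38 to 8.78 at 541 mg/kg, against 6.46 to 8.00 in vehicle, and 4 of the 6 treated samples were above the highest vehicle sample (limma, adjusted p = 0.392). With a sample left out, the Myc difference ran from 0.6894 to 1.05 at 541 mg/kg and from 0.763 to 1.145 at 54.1 mg/kg. None of these passed (limma, adjusted p = 0.2845 to 0.61 and 0.2465 to 0.5853). Among 7 inhibitors of cyclin-dependent kinases, Cdkn2d, Cdkn2a and Cdkn1b had the smallest p, with 0.20, 0.15 and -0.06. Cdkn1a, the p53 target p21, differed by -0.07 at 541 mg/kg and -0.40 at 54.1 mg/kg (limma, adjusted p = 0.917 and 0.231). The second of these was the smallest adjusted p of the 80 genes at that dose.

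Of 6 G1 and S regulators, Cdc25a, Chek1 and Cks1b came first with -0.10, -0.13 and -0.09. Of 20 genes for origins, helicase and polymerase, Hells, Mcm10 and Uhrf1 did, with 0.19, -0.21 and 0.18. Of 35 further genes of mitosis, 25 had means above vehicle at 541 mg/kg and 11 at 54.1 mg/kg, and Fbxo5, Cdca8 and Stmn1 came first with 0.15, 0.15 and 0.17 at 541 mg/kg. Whether these 35 vary together as the mitotic genes above do was not tested, so their directions are not taken as separate observations.

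In the same samples, 4 of 8 measured genes linked to CAR passed the test at 541 mg/kg, all as rises, beside 0.155% of all probe sets. The list named 10 genes. Cyp2b1 and Cyp2b2 were found only on a probe set listed for several genes, so neither was analysed here. The list was chosen with earlier results of these data known, so the count is a description. Whether the rises came through CAR was not tested. Abcc3, an exporter of conjugates, ran from 5.80 to 8.04 at 541 mg/kg, against 4.52 to 5.20 in vehicle, a rise of 2.14 ± 0.28 (limma, adjusted p = 3.5e-05). Ces2c, a carboxylesterase, rose 2.83-fold (limma, adjusted p = 2.5e-08), Ugt2b1, a glucuronosyltransferase, by 1.01 ± 0.13 (limma, adjusted p = 3.4e-05) and Cyp3a23-3a1, a cytochrome P450, by 0.67 ± 0.11 (limma, adjusted p = 0.00102). Gadd45b, a CAR-associated gene of growth in mouse liver, differed by 0.05, and Gadd45a, Gadd45g and Nr1i3, the CAR gene itself, by 0.27, 0.75 and -0.37, none of which passed.

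At 54.1 mg/kg 3 of the 8 passed, all as rises, beside 0.0741% of probe sets, and at each of the 3 lower doses 0 of 8 passed. For the same reason these counts are a description. Ugt2b1 rose by 0.85 at 54.1 mg/kg (limma, adjusted p = 0.00219, and at most 0.0162 with a sample left out). Abcc3 rose by 1.53 (limma, adjusted p = 0.0173), but without vehicle sample 1 its adjusted p was 0.0513. The rise of Ces2c, 0.68 (limma, adjusted p = 0.0323), was also lost in most fits with a sample left out. Its adjusted p was between 0.064 and 0.104 without any 1 of vehicle samples 1, 3, 4 and 5 or of samples 1, 2, 3, 4 and 6 at 54.1 mg/kg, 0.0512 with each array centred on its median and 0.0519 in a fit of only those groups.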

How the data were processed

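Liver RNA of 36 samples in 6 groups was measured on Affymetrix rat expression arrays. The deposited values are log2 levels per probe set made by the authors; per the submitters' processing notes the tools were RMA and affy, with no version given. The design text says that the authors compared each dose with vehicle in R/maanova at an FDR of 5%, a test not used here. Raw intensities were not analysed here, so depth does not apply and the number of arrays limits the precision. No column of another series was present.

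After 57 control probe sets were left out, 31042 were fitted with limma 3.58.1 in R 4.3.3 as 6 group means, with Benjamini-Hochberg adjustment over all of them. A probe set listed for several genes (436) or for none (9780) named no gene. On simulated data the fit was tested before use. Correlations and permutation tests used Python 3.11.15 and scipy 1.17.1. Named with values by sample are Mki67, Top2a, Cdk1, Ccnb1, Ccnd1, Pcna and Mcm2, the 8 genes with the smallest F-test p and the 3 largest differences each way at each dose, 24 genes in all, and of each other cell cycle list the 3 smallest p at 541 mg/kg. The measured CAR genes were all given. Promoter windows are from a RefSeq table on GRCr8 and cover 32 genes. The members and the lists were chosen with earlier results of these data known.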

Additional observations from a re-analysis of the deposited data

Results flagged for a closer look

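Among the 24 genes given by sample, 144 groups of 6 were checked for a sample far from the others by Dixon's criterion at 95%, which flags about 1 in 20 groups by chance, and 14 were found. Replicate 5 of 5.41 mg/kg, the sample with the highest mitotic mean, stood above the rest of its group for Aurkb at 5.336, Cenpf at 5.525, Top2a at 6.2 and Mcm6 at 6.02. Mcm6 also stood high in replicate 1 of 54.1 mg/kg, at 5.758, and in replicate 2 of 0.05 mg/kg, at 6.084. Bub1b stood low in replicate 3 of 0.05 mg/kg, at 3.878, in replicate 6 of 54.1 mg/kg, at 3.849, and in replicate 6 of 541 mg/kg, at 3.806. The last of these samples was also low for Ccne1, at 4.724. Among the other licensing genes, Mcm2 was low in replicate 1 of 0.54 mg/kg, at 5.032, Mcm3 in replicate 4 of 5.41 mg/kg, at 4.719, and Mcm7 in replicate 6 of 5.41 mg/kg, at 7.028. Cdk4 was high in replicate 3 of 0.54 mg/kg, at 9.158, within its narrow range. All of these values are RMA levels on the log2 scale.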

How the results depend on the processing

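None of the 38 genes passed the FDR in any comparison under any alternative, the smallest adjusted p being 0.051 in limma, for the slope of Ccnd1 with dim probe sets left out. The settings were array weights, a filter on dim probe sets, centring of each array on its median, a trended and robust prior, the replicate number as a block, the mean of the probe sets of a gene, a fit of the 2 groups compared, and each sample left out in turn, of the groups compared for a difference and of vehicle and 541 mg/kg only for the trend and the F-test. Over all probe sets the counts past the FDR moved by over 1.5 times as follows. With array weights they were 80 at 541 mg/kg, 64 at 54.1 mg/kg, 376 in the trend and 53 in the F-test. With dim probe sets left out they were 83, 37 and 376 at 541 mg/kg, at 54.1 mg/kg and in the trend, where fewer probe sets are tested. With only the groups compared they were 31 at 541 mg/kg and 43 at 54.1 mg/kg. With a sample left out the counts ran from 18 to 63 at 541 mg/kg, from 5 to 36 at 54.1 mg/kg, from 0 to 2 in 541 against 54.1 mg/kg, and, for the 12 vehicle and 541 mg/kg samples alone, from 85 to 259 in the trend and from 17 to 41 in the F-test. At 541 mg/kg the counts that moved by over 1.5 times were, by the group and number of the sample left out, from vehicle 25 (sample 4) and from 541 mg/kg 21 (sample 1) and 18 (sample 4). At 54.1 mg/kg the counts that moved by over 1.5 times were, by the group and number of the sample left out, from vehicle 5 (sample 1), 36 (sample 2), 15 (sample 5) and 14 (sample 6) and from 54.1 mg/kg 15 (sample 1), 15 (sample 2), 15 (sample 3), 7 (sample 4) and 35 (sample 5). In 541 against 54.1 mg/kg the counts that moved by over 1.5 times were, by the group and number of the sample left out, from 54.1 mg/kg 0 (sample 1), 0 (sample 2), 0 (sample 3), 0 (sample 4) and 0 (sample 5) and from 541 mg/kg 0 (sample 1), 0 (sample 3), 2 (sample 4) and 0 (sample 6). In the slope per dose step the counts that moved by over 1.5 times were, by the group and number of the sample left out, from vehicle 144 (sample 1), 127 (sample 3) and 130 (sample 5) and from 541 mg/kg 85 (sample 1), 105 (sample 4) and 141 (sample 5). In the F-test the counts that moved by over 1.5 times were, by the group and number of the sample left out, from 541 mg/kg 17 (sample 1), 17 (sample 3), 17 (sample 4) and 17 (sample 6). The differences of single genes were less stable in sign than in call. Of 97 results for the genes given here, 30 took the opposite sign at least once, in 108 of 1799 values, of which 98 had a sample left out. Over all 38 genes the sign was the same in every fit for 17 at 541 mg/kg, 20 at 54.1, 17 at 5.41, 22 at 0.54 and 15 at 0.05 mg/kg, 24 in 541 against 54.1 mg/kg and 23 in the trend. The counts of genes above vehicle rest on such signs. Signs turned without leaving out a sample in these cases, the cause of which was not tested. With array weights the value was 0.0014 for Mcm6 at 541 mg/kg, -0.014 for Tyms at 541 mg/kg, 0.0093 for Top2a at 541 mg/kg, -0.013 for Mcm2 in 541 against 54.1 mg/kg and 0.0012 for Ccnb1 in the slope per dose step. With each array centred the value was -0.0026 for Mcm4 at 541 mg/kg and -0.0016 for Tyms at 541 mg/kg. With the mean of the probe sets the value was -0.0020 for Ccnb1 at 541 mg/kg, 0.0057 for Top2a at 541 mg/kg and -0.0019 for Tk1 at 0.05 mg/kg. Among the values with a sample left out, those that crossed 0 ran from -0.16 to 0.011 for Ccnd2, -0.025 to 0.10 for Ccne1, -0.024 to 0.048 for Mcm4, -0.016 to 0.057 for Rrm1, -0.12 to 0.25 for Ccna2, -0.12 to 0.13 for Ccnb1, -0.13 to 0.17 for Ccnb2, -0.036 to 0.094 for Birc5, -0.14 to 0.25 for Cdkn3, -0.16 to 0.20 for Kif20a, -0.038 to 0.11 for Prc1, -0.10 to 0.054 for Mcm6, -0.067 to 0.068 for Tyms, -0.20 to 0.0083 for Aurkb, -0.14 to 0.095 for Cdca3, -0.16 to 0.12 for Top2a, -0.023 to 0.24 for Bub1, -0.018 to 0.15 for Cdc20, -0.014 to 0.22 for Ube2c, -0.020 to 0.11 for Mcm2, -0.012 to 0.050 for Pcna and -0.13 to 0.0067 for Cdkn1a at 541 mg/kg, and -0.072 to 0.23 for Mki67 and -0.27 to 0.013 for Cdk1 at 54.1 mg/kg, and -0.0087 to 0.17 for Cenpf at 5.41 mg/kg, and -0.064 to 0.066 for Mcm2 and -0.057 to 0.084 for Prc1 in 541 against 54.1 mg/kg, and -0.026 to 0.0094 for Ccnb1, -0.027 to 0.014 for Top2a and -0.0087 to 9.52e-05 for Pcna in the slope per dose step.

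The replicate numbers of the labels were also fitted as a block. The correlation of same-numbered deviations from the group means ran from -0.26 to 0.23 over the 15 pairs of groups, and from -0.21 to 0.12 between 541 mg/kg and vehicle. It was highest between 541 and 0.05 mg/kg, at 0.058 to 0.23 with 5 of 6 over 0.1. In none of the 15 were all 6 over 0.1, so the numbers were not taken to pair the samples. With the block, 0 of the 38 genes passed in any comparison (limma), and over all probe sets 44 passed at 541 mg/kg, 28 at 54.1 mg/kg, 212 in the trend and 28 in the F-test. With 6 samples a group, the median standard error of the 38 differences was 0.17, and differences of that size were not detectable. Larger ones, such as that of Ccnd1 at 541 mg/kg, did not pass either, so 0.17 is not the limit of detection. The array of replicate 5 at 54.1 mg/kg had the highest lower quartile, 3.80, and the lowest upper quartile, 6.95, of the 36, and leaving it out called none of the 38 genes in the comparisons with 54.1 mg/kg.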
